A study of Mus musculus with 32 samples.

Results

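Lumbar motor neurons of SOD1-G93A transgenic mice at 8 weeks of age were set against motor neurons of their nontransgenic littermates. The comparison comprised the 8 arrays labelled SODmn out of 32 in the series, that is 4 of 16 littermate pairs, each hybridised on 2 arrays with the dyes exchanged. SOD1-G93A mice were female and of strain B6SJL-Tg(SOD1-G93A)1Gur, which carries a mutant human superoxide dismutase gene (as background, under its own human promoter and so not in motor neurons alone), and control mice were female B6SJL littermates of the same age. Motor neurons of the anterior horn were recognised with an anatomical atlas in sections stained with cresyl violet and cut out by laser, with 500 cells collected per mouse, and the amplified RNA of 1 transgenic and 1 control mouse was hybridised together. The series also holds glia taken from around the motor neurons of the same model (4 pairs), and motor neurons of TAU-P301L mice, which carry a mutant human tau and were 16 weeks old on a B6D2F1 background (4 pairs). Glia of the 16 weeks old TAU-P301L mice (4 pairs) complete the series. SOD1-G93A glia and TAU-P301L motor neurons serve below to show where the SOD1-G93A motor neurons differ from them. All of these pairs also entered the estimate of the spread used in the main test. Nothing in the labels says that pairs came from separate litters, so the p-values measure the spread between pairs, which may be technical and which was estimated over all 16 pairs of the series.

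SOD1 is an abundant cytosolic enzyme that removes superoxide, and dominant mutations of it cause a familial form of amyotrophic lateral sclerosis (ALS), a disease in which motor neurons are lost. The G93A enzyme gains toxic properties, misfolds and aggregates, and mice that carry it lose motor neurons and become paralysed as adults. Misfolded proteins are cleared mainly by chaperones, by autophagy and by the 26S proteasome, a barrel of proteolytic subunits (20S core) capped by a regulatory particle (19S) whose ATPases unfold the proteins that ubiquitin enzymes have tagged. Large motor neurons also depend on neurofilaments and on microtubule motors to supply long axons.

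One array has to be described before any result. On the array of pair 3 with the transgenic extract in Cy3, the deposited spot rows were displaced by 2 rows of the 206 in the printed grid. Read as deposited, its log2 Cy3 signal correlated at r = -0.00784 with the median of the other 31 arrays, while read 2 rows on it correlated at r = 0.612. The other 7 motor neuron arrays of this comparison reached r of at least 0.86 as deposited, and no other array of the series fitted better at another offset. Its 5 bright corner spots, controls printed in the first rows, read a median of 22.7 as deposited and 2040 when taken 2 rows on, against 948 to 2160 on the other 7 arrays. All values below use the rows 2 further on, which left 872 probe spots of that array without a reading. Other irregularities of the array remained. In Cy5 the share of spots well above background was 7.2% in its lowest rows (151 to 206) and 26.3% over the whole array. In Cy3, the channel of the SOD1-G93A extract, it was 100% in rows 1 to 100 and 38.8% in rows 151 to 206. On this array the call therefore did not separate spots of that extract in the upper rows. The ratios of the 2 arrays of pair 3 correlated at r = 0.0988, against 0.545, 0.209 and 0.668 for pairs 1, 2 and 4. Values without pair 3 are therefore given beside the main ones.

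**Figure D1:**
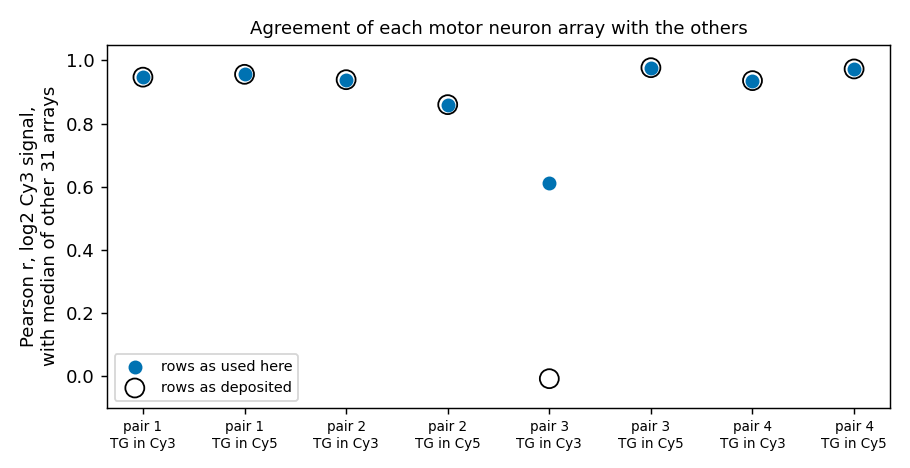
Pearson correlation (vertical axis) of each of the 8 motor neuron arrays' log2 Cy3 signal with the median of the other 31 arrays, for the rows as deposited (open circles) and as used here (filled circles). TG is the transgenic extract; 7 arrays are unmoved at 0.86 or above, and the pair 3 array with the transgenic extract in Cy3 moves to 0.612.

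The extracts also differed in signal. SOD1-G93A extracts had 54.7%, 47.2%, 19% and 14.7% of probes well above background on both arrays in pairs 1 to 4, and control extracts had 51.6%, 41.7%, 22.2% and 23.9%. Pairs 3 and 4 were read in a first scan session and pairs 1 and 2 in a second, so the dim pairs share a session. Pair ratios correlated weakly across the 14180 genes tested, at r from -0.148 to 0.116 with a median of 0.0178 (genes are not independent, and no test is attached). The number of arrays limits the precision.

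The captured cells carried motor neuron transcripts together with those of glia and of interneurons. Of 24 motor neuron and cholinergic markers on the array, 23 were well above background in at least 4 of the 8 motor neuron extracts, and 6 of the 18 that could be compared were higher in all 8 motor neuron extracts than in all 8 glia extracts of the same model, against 5.91% of all genes compared. None of the 18 lay below all glia extracts, against 1.87% of all genes. Nefm, the medium neurofilament, averaged 8.61 in motor neuron extracts and 6.73 in glia extracts on the log2 intensity scale, and Slc5a7, the choline transporter, averaged 9.25 and 7.68. Other markers of the list averaged lower in motor neuron extracts than in glia extracts, with overlap. These were Esrrg at 7.46 and 8.53, Lhx4 at 6.74 and 7.41, Mnx1 at 6.27 and 6.55, and Lhx3 at 6.26 and 6.42. The peptide gene Uts2b was above background in 7 of 8 motor neuron extracts and in 0 of 8 glia extracts. Glia arrays were read with another software version, which cannot be told apart from cell type in these levels and calls. Chat, the acetylcholine-synthesising enzyme, was dim, above background in 4 of 8 motor neuron extracts and 3 of 8 glia extracts. Myelin RNA was nevertheless present: Mag, a glycoprotein of myelin, averaged 9.97 in motor neuron extracts and 11.97 in glia extracts. Of 18 interneuron markers 14 were detected in at least 4 of 8 extracts, and Slc32a1, the vesicular transporter of GABA and glycine, averaged 8.67 and was above background in 8 of 8. In extracts of this kind, fewer cells of a type and less RNA per cell cannot be told apart. As a check of the labelled sex, Xist was above background in 8 of 8 extracts, and the Y-linked genes Ddx3y, Eif2s3y and Uty in 0 of 8; Kdm5d was above it in 4 of 8 at an intensity of 6.10, near the floor.

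The level of Sod1 itself did not separate the groups. Its log2 intensity was 12.31, 12.04, 11.42 and 12.15 in the SOD1-G93A extracts of pairs 1 to 4, and 12.37, 12.30, 11.73 and 11.99 in the control extracts, so it was among the brighter probes and the groups overlapped. The pair ratios were -0.06, -0.26, -0.30 and 0.15, with a mean of -0.12 (SD 0.21, n = 4; limma adjusted p = 0.754). The probe was designed on the mouse gene, and whether it reads the human transgene is not given in the sources used here, so this is no check of the transgene.

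**Figure D2:**
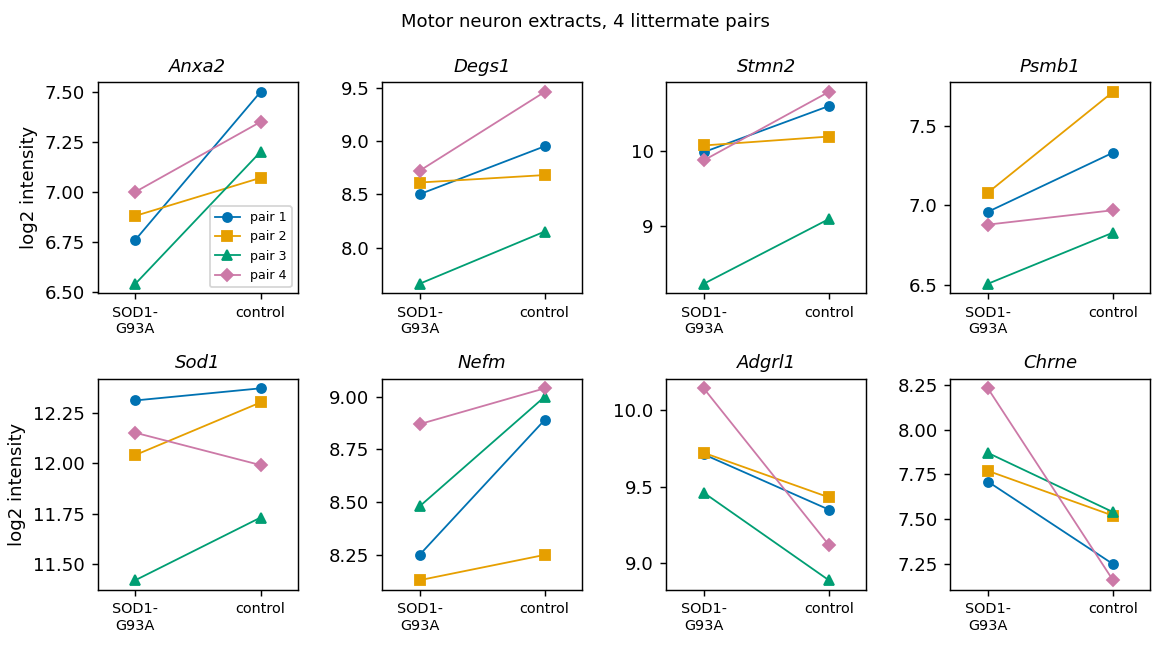
Log2 intensity (vertical axes, each to its own range) of 8 genes in SOD1-G93A motor neuron extracts (left) and control extracts (right), with a line joining the littermates of each of 4 pairs. Anxa2, Degs1, Stmn2, Psmb1 and Nefm lie lower in the SOD1-G93A littermate of every pair, Adgrl1 and Chrne lie higher, and Sod1 crosses in pair 4.

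No gene passed the test for a difference between SOD1-G93A and control motor neurons. Of 14180 genes well above background in at least 4 of the 8 extracts, 0 (0%) had an adjusted p under 0.05 in limma, where the 4 pair ratios were tested against 0 with the spread estimated over all 16 pairs, and the smallest adjusted p was 0.163. With the spread estimated from these 4 pairs alone it was 0.853, and 536 genes were lower and 165 higher at an unadjusted p under 0.05. An unadjusted p under 0.05 was reached by 1279 genes (9.02%), of which 944 were lower and 335 higher in SOD1-G93A motor neurons. These are 6.66% and 2.36% of the genes tested. Without pair 3 the counts were 0 adjusted, 856 lower (6.04%) and 400 higher (2.82%), with a mean below 0 for 51.3% of genes. With pair 3 read as deposited they were 0 adjusted, 873 lower and 468 higher. Within the 2 pairs of the first scan session 1 gene passed, and within the 2 pairs of the second 2 passed. Below 0 in all 4 pairs were 1219 genes (8.6%) and above 0 in all 4 were 657 (4.63%). The SOD1-G93A extracts lay wholly below the control extracts for 63 genes (0.444%) and wholly above for 14 (0.0987%). The excess of lower genes depended on the processing: without background correction there were 1626 lower and 1097 higher, and in the authors' deposited matrix, which carries the displaced rows, 522 lower and 709 higher. It also differed between dye orientations: arrays with the transgenic extract in Cy5 gave 631 lower and 1216 higher, with 45.8% of means below 0, and arrays with it in Cy3 gave 660 lower and 147 higher, with 66.6% of means below 0. Every value that follows is therefore a description of 4 pairs, and none of the named genes passed.

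The 12 leading genes that were lower in all 4 pairs had log2 ratios of -0.21 to -0.54. Anxa2, annexin A2, a calcium-dependent membrane-binding protein, led them. Its log2 intensity was 6.76, 6.88, 6.54 and 7.0 in SOD1-G93A extracts, and 7.5, 7.07, 7.20 and 7.35 in control extracts, so every SOD1-G93A value lay below every control value. The mean ratio was -0.48 (SD 0.26, n = 4; limma adjusted p = 0.163), or -0.43 without pair 3, and it was below 0 on 8 of 8 arrays, as were 2.04% of all genes. A second Anxa2 probe, above background in 0 of 8 extracts, gave -0.11. S100a10, the protein that pairs with annexin A2 in a membrane complex, had pair ratios of -0.35, -0.54, -0.89 and -0.12, also below 0 on 8 arrays.

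Sel1l3 was dim but steady, at 6.20, 6.05, 6.62 and 6.42 in SOD1-G93A extracts and 6.45, 6.32, 6.77 and 6.58 in control extracts. Its mean ratio was -0.21 (SD 0.06, n = 4; limma adjusted p = 0.163). It was above background in 6 of 8 motor neuron extracts and 0 of 8 glia extracts, which were read with another software version. C9orf72, a partner in membrane traffic and autophagy whose repeat expansion causes human ALS, had pair ratios of -0.37, -0.52, -0.09 and -0.30, with a mean of -0.32 (adjusted p = 0.235), or -0.40 without pair 3 (adjusted p = 0.105). This C9orf72 probe was itself dim, above background in 5 of 8 extracts. A second C9orf72 probe, above background in 2 of 8 extracts, gave -0.01.

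Lipid enzymes stood among the leading lower genes. Degs1, which makes ceramide from dihydroceramide, read 8.5, 8.61, 7.66 and 8.72 in SOD1-G93A extracts, and 8.95, 8.68, 8.15 and 9.46 in control extracts. The ranges of the groups overlapped, each SOD1-G93A extract lay below its littermate, and the pair ratios were -0.45, -0.07, -0.49 and -0.74. Plpp1, a phospholipid phosphatase, had ratios of -0.71, -0.55, -0.36 and -0.12. Rspo2, R-spondin 2, a secreted enhancer of Wnt signalling, had ratios of -0.80, -0.15, -0.61 and -0.59 and was below 0 on 8 of 8 arrays. When pair 2 was left out, Degs1 and Anxa2 passed the adjusted threshold and no other gene did.

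The remaining leading lower genes serve the nucleus, the ribosome and the proteasome. Med10, a subunit of the Mediator that links transcription factors to RNA polymerase II, had ratios of -0.29, -0.36, -0.72 and -0.38. Sdad1, a ribosome assembly factor known from yeast, was the most even, with ratios of -0.34, -0.38, -0.31 and -0.34 (SD 0.03, n = 4; adjusted p = 0.265). Gnl3l, a nucleolar GTPase, averaged -0.31. Btbd10 averaged -0.30 and was below 0 on 8 arrays. Psmb1 is described with the proteasome.

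Among genes higher in all 4 pairs, a receptor of nerve terminals led. Adgrl1, latrophilin 1, an adhesion receptor at synapses, read 9.71, 9.72, 9.46 and 10.14 in SOD1-G93A extracts, and 9.35, 9.43, 8.89 and 9.12 in control extracts, with no overlap. Its mean ratio was 0.57 (SD 0.33, n = 4; adjusted p = 0.265). A second Adgrl1 probe above background in 6 of 8 extracts gave 0.04, so the 2 probes disagreed. Chrne, the adult epsilon subunit of the muscle acetylcholine receptor, read 7.71, 7.77, 7.87 and 8.23 in SOD1-G93A extracts, and 7.25, 7.52, 7.54 and 7.16 in control extracts. The groups did not overlap for Chrne either and the mean ratio was 0.53 (adjusted p = 0.301), while its second probe gave -0.03. Chchd10, a mitochondrial intermembrane protein mutated in some human ALS, had ratios of 0.49, 0.08, 0.41 and 1.49, so pair 4 carried much of its mean of 0.62.

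Of the other leading higher genes, 2 act on ubiquitin. Ube2s, the enzyme that extends ubiquitin chains for the anaphase-promoting complex, had ratios of 0.91, 0.18, 0.36 and 0.21, and its second probe averaged 0.34. Ubr2, a ubiquitin ligase that reads the amino terminus of proteins, did not overlap between groups and averaged 0.28, but its 5 other probes averaged between -0.06 and 0.09. Ybx2, a germ-cell RNA-binding protein, averaged 0.40, and Cmklr1, the receptor of chemerin, averaged 0.42. Lrrc8d, a subunit of volume-regulated anion channels, averaged 0.21, and Pdlim5, an adaptor on actin, averaged 0.20. Gtf3c1, the large subunit of an RNA polymerase III factor, was even at 0.21, 0.17, 0.16 and 0.17. Olfr774, an olfactory receptor, averaged 0.16 and the RIKEN transcript 2700046A07Rik averaged 0.18.

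**Figure D3:**
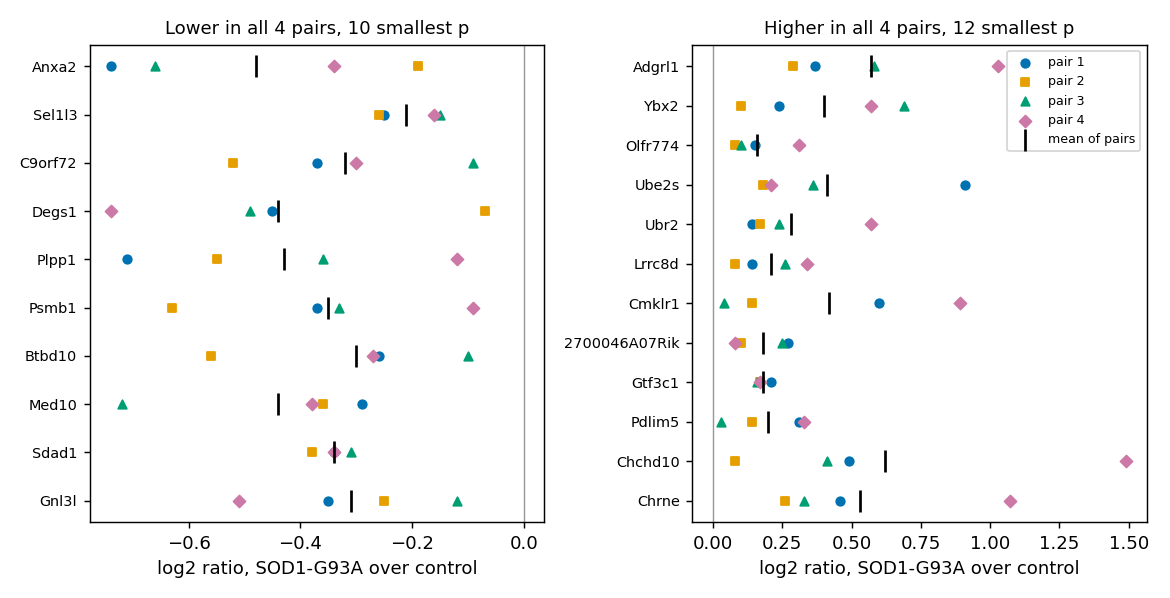
Log2 ratio of SOD1-G93A over control (horizontal axes) for the 10 genes with the smallest p among those below 0 in all 4 pairs (left) and the 12 among those above 0 in all 4 pairs (right); coloured points are pairs and black bars their means. None passed the adjusted threshold, and pair 4 stands far to the right for Adgrl1, Chchd10 and Chrne.

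Subunits of the 26S proteasome lay mostly below 0. Of 33 subunits in 3 lists, 32 were on the array and 29 were tested; the mean ratio was below 0 for 26 of 29, against 53.7% of all genes, and 11 of 29 were lower at an unadjusted p under 0.05 and 0 higher, against 6.66% and 2.36% of all genes. None of the 29 passed the adjusted threshold. Their median ratio was -0.19, against -0.01 for all genes tested, and -0.15 without pair 3, when 8 of 29 were lower. By pair the medians were -0.24, -0.03, -0.22 and -0.15, so pair 2 showed almost none of it. In glia of the same model the median ratio of these genes was -0.03, and in TAU-P301L motor neurons 0.07. Members were counted only if above background, and dim subunits are missing from these counts.

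In the 20S core, Psmb1, a beta subunit, read 6.96, 7.08, 6.51 and 6.88 in SOD1-G93A extracts, and 7.33, 7.71, 6.83 and 6.97 in control extracts. Each SOD1-G93A extract lay below its littermate although the groups overlapped, and the mean ratio was -0.35 (SD 0.22, n = 4; adjusted p = 0.261). The alpha subunits Psma1 and Psma6 averaged -0.36 and -0.23 and were below 0 in all 4 pairs. Of 13 core subunits tested, 11 had a mean below 0, and their median of -0.16 became -0.08 without pair 3.

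In the 19S cap, all 5 ATPase subunits tested had a mean below 0, with a median of -0.28, but in pair 2 their median was 0.12 and 4 of 5 were above 0. Psmc2 had ratios of -0.68, 0.12, -0.51 and -0.30. Of 11 non-ATPase subunits 10 had a mean below 0, and 6 were lower at the unadjusted threshold, or 3 without pair 3. Psmd11, a scaffold subunit of the lid, had ratios of -0.17, -0.11, -0.31 and -0.21 (adjusted p = 0.265). Psmd12, another lid subunit, read 9.89, 9.64, 9.06 and 9.84 in SOD1-G93A extracts, and 9.94, 9.94, 9.58 and 10.44 in control extracts, with a mean ratio of -0.37. Psmd6 averaged -0.28 and Psmd2, the docking subunit of the base, -0.31, or -0.17 without pair 3. Activators, assembly chaperones and inducible subunits lay closer to 0, with a median of -0.06 over 13 genes.

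**Figure D4:**
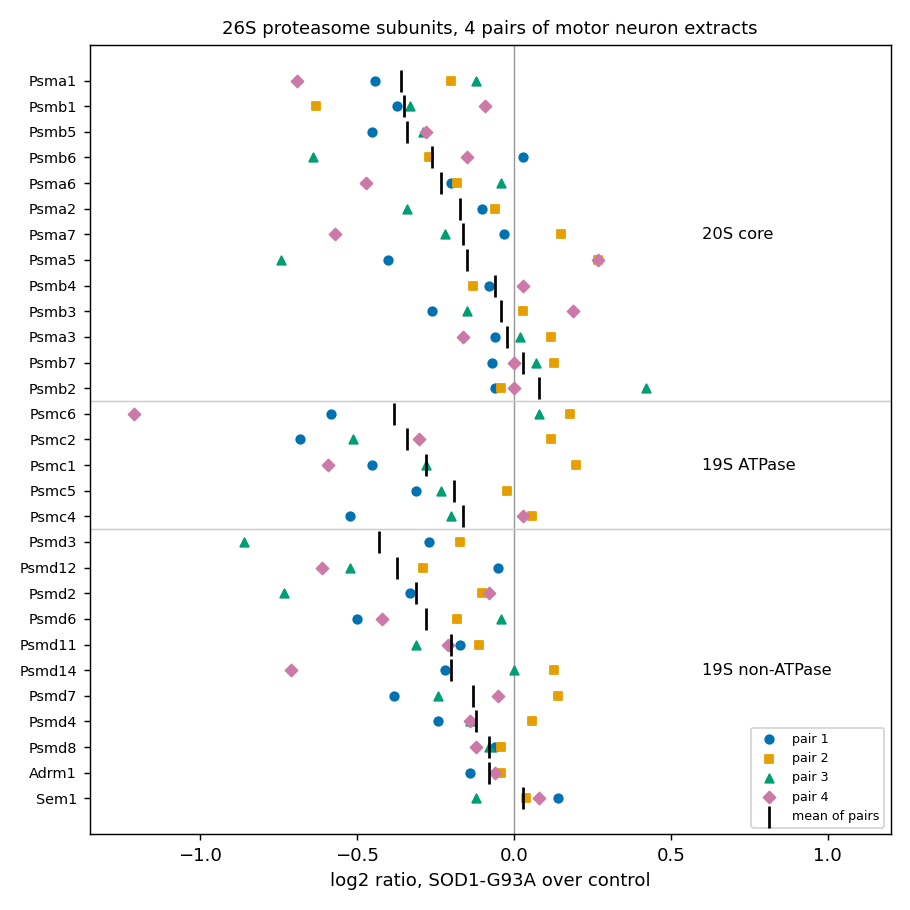
Log2 ratio of SOD1-G93A over control (horizontal axis) for the 29 tested subunits of the 26S proteasome, grouped by subcomplex and ordered by mean; coloured points are pairs (a pair without a reading is absent) and black bars are means. Means lie below 0 for 26 of 29 subunits, and pair 2 lies above 0 for 4 of the 5 ATPases.

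Proteasome genes are known to share control by the factor Nfe2l1, which binds antioxidant response elements, so their promoters are shown. The element was searched as TGACNNNGC on both strands of RefSeq promoters (GRCm38.p6, 250 bases before to 50 after the start). A match was found in 6 of 29 promoters, available for 27 of the 33 subunit genes, or 20.7%, against 12.4% of all 32851 promoters. Promoters of the 2 named subunits of the cap with the smallest p that have an entry are printed because 1 holds a match, in capitals, and the other does not. Both lie on the plus strand of chromosome 11, Psmd12 at chr11:107479278-107479577 and Psmd11 at chr11:80428365-80428664.
Psmd12: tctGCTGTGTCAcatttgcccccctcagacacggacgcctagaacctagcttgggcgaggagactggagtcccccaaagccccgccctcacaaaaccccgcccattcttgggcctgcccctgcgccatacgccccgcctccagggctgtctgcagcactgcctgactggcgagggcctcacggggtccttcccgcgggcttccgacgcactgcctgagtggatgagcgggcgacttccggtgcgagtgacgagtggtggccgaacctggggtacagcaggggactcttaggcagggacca
Psmd11: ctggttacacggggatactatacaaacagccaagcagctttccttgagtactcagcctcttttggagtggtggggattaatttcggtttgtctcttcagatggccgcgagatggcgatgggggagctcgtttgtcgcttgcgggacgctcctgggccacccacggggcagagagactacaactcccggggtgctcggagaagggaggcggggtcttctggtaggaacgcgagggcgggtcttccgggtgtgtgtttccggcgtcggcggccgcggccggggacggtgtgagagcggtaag
The match in Psmd12 starts 247 bases before the start of the gene. Nfe2l1 itself averaged 0.21, with ratios of 0.44, -0.13, -0.02 and 0.55 (chosen after its values were seen).

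Medians of the other lists of protein quality control lay nearer to 0. Among 32 ubiquitin, E1, E2 and deubiquitinase genes, 6 were lower and 1 higher at the unadjusted threshold, against 6.66% and 2.36% of all genes, with a median of -0.06. Without pair 3, 4 were lower and 1 higher. The E2 enzymes Ube2d3, Ube2g1 and Ube2e1 averaged -0.35, -0.16 and -0.19, and Ube2e1 turned to 0.25 when pair 3 was read as deposited. Other Ube2d3 probes averaged between -0.09 and -0.01, and the other Ube2g1 probe averaged -0.07. Among 32 cytosolic heat shock proteins and co-chaperones 6 were lower and 0 higher, against 6.66% and 2.36% of all genes, with a median of -0.08. Bag3, a co-chaperone of selective autophagy, had ratios of -0.67, -0.36, -0.61 and -0.04, while Dnajb1, a heat-inducible partner of Hsp70, averaged 0.27. In the list for folding and stress of the endoplasmic reticulum 7 of 31 were lower and 0 higher, against 6.66% and 2.36% of all genes, with a median of -0.02, and without pair 3 only 3 of 31 were lower. P4hb, the protein disulfide isomerase, averaged -0.23, and Chac1, a stress-induced enzyme that degrades glutathione, averaged -0.35. Autophagy and lysosome genes had a median of -0.10, with 3 of 28 lower and 0 higher, against 6.66% and 2.36% of all genes. Without pair 3 these counts were 5 and 1. Ctsd, a lysosomal protease, averaged -0.20.

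Genes of motor neuron identity tended to lie below 0 in 3 of the 4 pairs. Of 23 tested markers 18 had a mean below 0, against 53.7% of all genes, 6 were lower and 0 higher at the unadjusted threshold, against 6.66% and 2.36% of all genes, and the median was -0.15. By pair the medians were -0.29, -0.05, -0.11 and 0.03, and without pair 3 the median was -0.09 with 3 lower. Uts2b had ratios of -0.35, -0.27, -0.49 and -0.07 and was below 0 on 8 of 8 arrays (adjusted p = 0.265). Prph, peripherin, an intermediate filament of motor and sensory neurons, had ratios of -0.39, -0.21, -0.06 and -0.12. It was dim, above background in 5 of 8 extracts, at log2 intensities from 6.07 to 6.65. Nefm read 8.25, 8.13, 8.48 and 8.87 in SOD1-G93A extracts, and 8.89, 8.25, 9.0 and 9.04 in control extracts, overlapping as groups but lower within each pair. Chodl, a marker of fast motor neurons, was near the floor, above background in 4 of 8 extracts, and its ratio of -0.62 in pair 1 stood apart from the -0.06 to -0.12 of the others.

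Bright motor neuron markers were not uniformly lower. Nefh, the heavy neurofilament, had ratios of -0.89, 0.05, -0.48 and 0.58, and Calcb, a calcitonin gene-related peptide, -0.52, -0.34, -0.89 and 1.02. Slc5a7 averaged -0.31, or -0.11 without pair 3.

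The medians of astrocyte and oligodendrocyte markers had the opposite sign to that of motor neuron markers in all 4 pairs. In pair 1, where motor neuron markers had a median of -0.29, astrocyte markers had a median of 0.26 and oligodendrocyte markers 0.24. In pairs 2 and 3, with motor neuron markers at -0.05 and -0.11, astrocyte markers stood at 0.03 and 0.07 and oligodendrocyte markers at 0.04 and 0.16. In pair 4, with motor neuron markers at 0.03, they stood at -0.16 and -0.06. Microglia markers, at 0.14, -0.02, 0.05 and -0.04 by pair, shared the sign of motor neuron markers in pair 2. Endothelial and pericyte markers, at 0.21, -0.05, -0.02 and -0.06, shared it in pairs 2 and 3. The mean ratio was above 0 for 9 of 13 astrocyte, 10 of 11 oligodendrocyte, 3 of 3 precursor and 9 of 11 microglia markers. It was above 0 for 4 of 7 endothelial and pericyte markers, while 53.7% of all genes lay below 0. Over all pairs 0 of 13 astrocyte markers were lower or higher at the unadjusted threshold, and among 11 oligodendrocyte markers 0 were lower and 1 higher. Without pair 3 the median of oligodendrocyte markers was 0.04, against 0.11 with it, and 0 were higher. Of the 4 brightest interneuron markers, 3 were above 0 in pairs 1 to 3 and below 0 in pair 4. Slc32a1 had ratios of 0.22, 0.47, 1.07 and -1.08, and Slc6a5, the glycine transporter of inhibitory neurons, 0.14, 0.65, 1.04 and -0.47. Pvalb, the calcium buffer parvalbumin, had ratios of 0.95, 0.51, 0.53 and -0.35, but Penk, the enkephalin precursor, 0.37, -0.38, -0.52 and -0.90. Of 14 interneuron markers tested 7 had a mean below 0, with a median of -0.01, and their mean level ran from 6.67 to 6.92 in SOD1-G93A extracts and from 6.69 to 6.95 in control extracts. The mean log2 level of the oligodendrocyte list ran from 7.71 to 8.29 in SOD1-G93A extracts and from 7.51 to 8.11 in control extracts, and that of the astrocyte list from 8.14 to 8.74 and from 8.18 to 8.48. For microglia the ranges were 6.44 to 6.65 in SOD1-G93A extracts and 6.39 to 6.55 in control extracts, and 0 of 11 microglia markers passed even the unadjusted threshold. Gfap was above background in 1 of 8 motor neuron extracts, Mog and Itgam in 0. The part of these cells in the motor neuron and proteasome values was not tested.

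**Figure D5:**
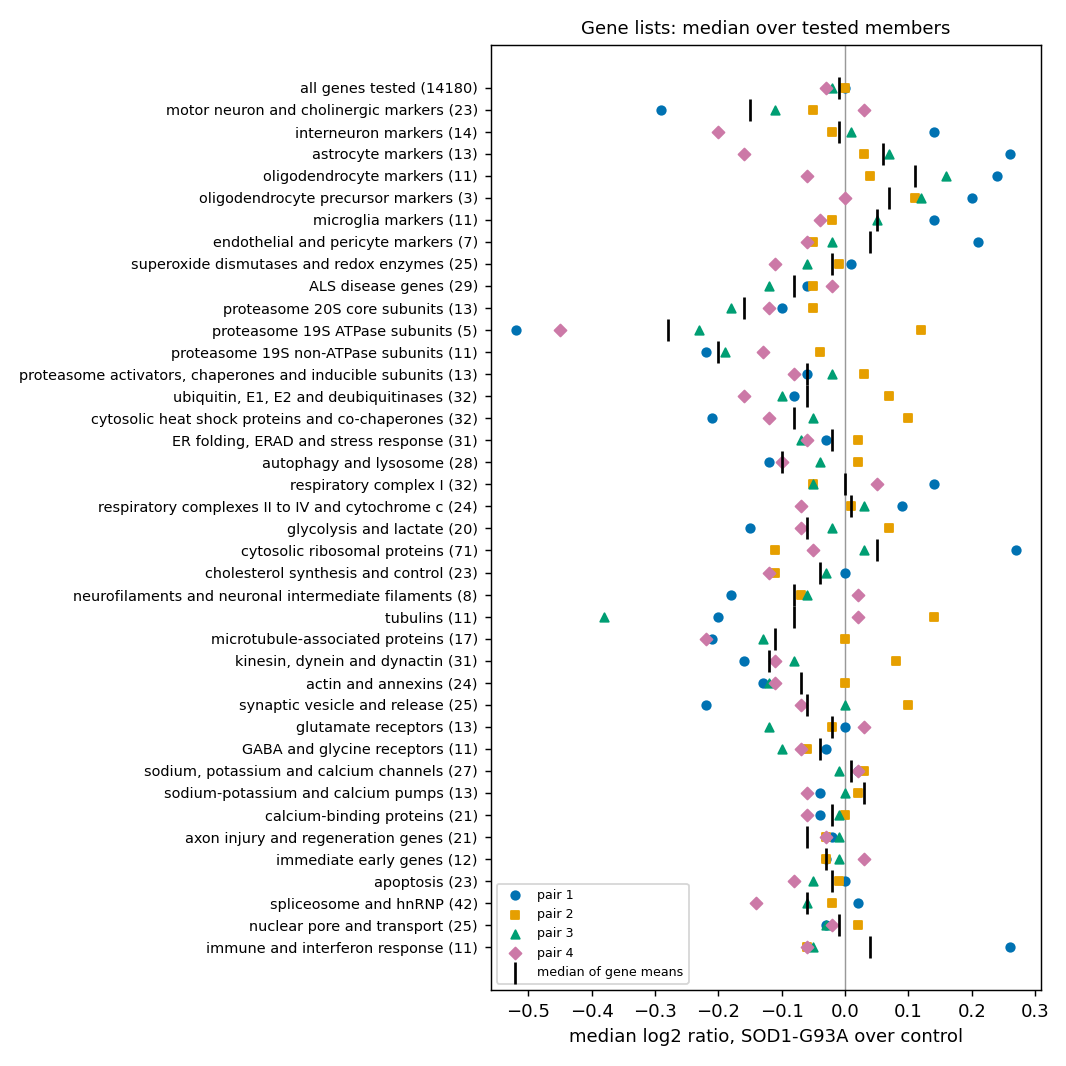
Median log2 ratio of SOD1-G93A over control (horizontal axis) over the tested members of the gene lists, leaving out the sex check genes and the lists with under 3 tested members (red cell markers and ATP synthase), whose number is in brackets; coloured points are the medians within each pair and black bars the medians of the gene means. Of the lists drawn, the 3 of 26S proteasome subunits and the motor neuron markers lie furthest to the left, with medians of -0.15 to -0.28, and all genes tested lie at -0.01.

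Genes of axonal transport had medians below 0 in pairs 1, 3 and 4 and above 0 in pair 2. Of 31 kinesin, dynein and dynactin genes 4 were lower and 0 higher, against 6.66% and 2.36% of all genes, with a median of -0.12. Without pair 3, 2 were lower and the median was -0.05. Dync1i1, an intermediate chain of dynein, had ratios of -0.64, -0.05, -0.20 and -0.42, and Klc1, a kinesin light chain, and Dctn6, a dynactin subunit, were below 0 on 8 arrays with means of -0.30 and -0.34. Stmn2, stathmin 2, a microtubule regulator of regenerating axons, read 9.99, 10.08, 8.22 and 9.88 in SOD1-G93A extracts, and 10.61, 10.20, 9.09 and 10.80 in control extracts. Its mean ratio was -0.63 (SD 0.37, n = 4; adjusted p = 0.350), or -0.55 without pair 3. Tubb3, neuronal beta-tubulin, did not overlap between groups and averaged -0.23.

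Among 29 tested genes linked to human ALS 4 were lower and 1 higher, against 6.66% and 2.36% of all genes, with a median of -0.08, or -0.05 without pair 3. C9orf72, Prph, Stmn2 and Tuba4a, an alpha-tubulin, were the lower ones and Chchd10 the higher one. Tuba4a had ratios of -0.86, 0.32, -0.65 and -0.67 (named after its values were seen). Of 25 superoxide dismutases and redox enzymes 3 were lower and 0 higher, against 6.66% and 2.36% of all genes, and 1 was lower without pair 3. Keap1, the sensor that holds the antioxidant factor Nfe2l2 in check, averaged -0.23 and was below 0 on 8 arrays. Gsr, glutathione reductase, averaged -0.23. Ccs, the copper chaperone of Sod1, averaged 0.12, with p above the threshold.

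Energy and translation genes showed no common direction. The counts below stand against 6.66% lower and 2.36% higher among all genes at the unadjusted threshold. Oxidative phosphorylation genes had a median of -0.01 over 57 tested, with 4 lower and 3 higher, or 6 and 5 and a median of 0.04 without pair 3. Ndufc2, a subunit of complex I, was below 0 in all 4 pairs with a mean of -0.29, whereas Ndufs3, another, was above 0 in all 4 with a mean of 0.22. Of 71 cytosolic ribosomal proteins 4 were lower and 4 higher, with a median of 0.05 that ranged by pair over 0.27, -0.11, 0.03 and -0.05. Without pair 3, 2 were lower and 5 higher. Rpl22 averaged -0.34 and Rpl10a -0.14. A second Rpl22 probe, above background in 8 of 8 extracts, gave 0.25, so the 2 probes disagreed. In the cholesterol list 5 of 23 were lower and 0 higher, against 6.66% and 2.36% of all genes, with a median of -0.04, or -0.12 without pair 3. Pmvk, phosphomevalonate kinase, had ratios of -0.54, -0.30, -0.55 and -1.13 (mean -0.63, SD 0.35, n = 4; adjusted p = 0.265), and its second probe averaged -0.50. Sqle, squalene epoxidase, and Mvd, a mevalonate pathway decarboxylase, averaged -0.40 and -0.17.

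Injury, death, synaptic and immune lists had medians between -0.06 and 0.04. Their counts at the unadjusted threshold stand against 6.66% lower and 2.36% higher among all genes tested. Axon injury genes had a median of -0.06, or -0.11 without pair 3, with 4 of 21 lower and 0 higher. Gadd45a, a stress-induced gene, averaged -0.22. Apoptosis genes had a median of -0.02 with 3 of 23 lower and 1 higher, among them Birc2, an inhibitor of apoptosis, at -0.13 and Aifm1 at -0.25. Immediate early genes had 0 of 12 past the unadjusted threshold, and ion channels 0 of 27, or 1 and 2 without pair 3. Among synaptic genes 4 of 25 were lower, or 2 without pair 3, including Sv2b, a vesicle protein whose groups did not overlap, with a mean of -0.29, and Sncg, gamma-synuclein, at -0.22. In glutamate receptors Gria2, the AMPA receptor subunit that limits calcium entry, averaged -0.13. Nuclear pore genes held 2 lower and 3 higher of 25, or 2 and 1 without pair 3, with Nup153 at -0.20. Immune and interferon genes had 1 of 11 lower, Cd44 at -0.08, and 0 without pair 3.

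Whether the effect in SOD1-G93A motor neurons differed from that in SOD1-G93A glia was tested as a contrast in the same fit. No gene of 14904 passed (0%), the smallest adjusted p being 0.167, while 1729 (11.6%) had an unadjusted p under 0.05. Psmd11 averaged -0.20 in motor neurons and 0.21 in glia, a difference of -0.41 (SE 0.07; limma adjusted p = 0.167), and Ybx2 averaged 0.40 in motor neurons and -0.32 in glia, a difference of 0.72 (SE 0.14). Chrne averaged 0.53 in motor neurons and -0.34 in glia. Without pair 4, 1 probe with no gene symbol passed in this contrast and in that with TAU-P301L motor neurons.

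Set against TAU-P301L motor neurons, where age and strain differ with the model, no gene of 14558 passed (0%), with a smallest adjusted p of 0.102 and 1355 (9.31%) at an unadjusted p under 0.05. Rspo2 averaged -0.54 in SOD1-G93A motor neurons and 0.56 in TAU-P301L motor neurons, a difference of -1.10 (SE 0.16; limma adjusted p = 0.102). Degs1 averaged -0.44 and 0.28, and Anxa2 -0.48 and 0.18, with differences of -0.72 and -0.67. Without pair 2, 5 genes passed in this contrast, Anxa2, Degs1, Rspo2, Ncl and Tnpo3, of which Ncl and Tnpo3 are named after their values were seen.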

How the data were processed

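Two-colour Agilent mouse arrays were read from the deposited scanner files. Per the file headers, spot intensity (mean and local background, linear scale) came from Agilent Feature Extraction 8.5.1.1 for motor neurons and 9.5.1.1 for glia; the authors' deposited log10 ratios of Cy5 over Cy3 followed spatial detrending, background subtraction and linear plus lowess dye normalization. A matrix of log10 ratios, also deposited by the authors, follows transgenic over control. Here (R 4.3.3, limma 3.58.1) signals received normexp correction (offset 50) and loess, spots of a probe and then the 2 arrays of a pair were averaged, and a pair lacking either value was missing, as in 686 genes. Intensities per extract came from loess and Aquantile. Of 41174 probes 14537 had no gene name; the brightest probe stood for each gene. Spot rows of 1 array were moved by 2, a choice made after the data, and results with the rows as deposited, had been seen. limma, with Benjamini-Hochberg adjustment at 0.05, was fitted to all 16 pairs and tested on simulated data. Genes were named by rule: Sod1, the 12 smallest p in each direction with 1 sign in all 4 pairs, and per list up to 4 such members or otherwise 2, and for markers the 4 brightest; a few of these are not reported here. The members and lists were chosen with earlier results of these data known. Alternatives covered replicates, normalization, filters, dyes, scans and variance models. Pairs with equal replicate numbers were not treated as paired between comparisons. Their deviations correlated at r = -0.0989, 0.0337, 0.204 and 0.249 with glia, which cannot show whether they came from the same mice.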

Additional observations from a re-analysis of the deposited data

Results flagged for a closer look

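Within the 4 pairs, 1 pair stood apart from the other 3 for 12 of 190 sets of values examined, most of them single genes. The threshold gives about 1 in 20 for unselected values. That rate does not hold here, because many genes were named by sign and p and the lists overlap. Pair 4 stood apart for Ndufa12 at 0.6, for Ndufs4 at -0.5, for Dctn6 at -0.6 and for Aifm1 at -0.69, each as a log2 ratio of SOD1-G93A over control. Pair 2 stood apart for Psmf1, an inhibitor of the proteasome, at -0.52, for the proton pump subunit Atp6v0a1 at -0.49 and for Ndufs3 at 0.12. Pair 1 stood apart for Chodl at -0.62. Among list medians, pair 1 stood apart for endothelial and pericyte markers at 0.21, for the sex check genes at 0.3 and for immune and interferon genes at 0.26, and pair 2 for actin and annexins at 0.0. No difference between SOD1-G93A motor neurons and the glia or the TAU-P301L motor neurons passed the contrast tests.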

How the results depend on the processing

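In the alternatives run for it, the count of genes that passed stayed at 0 except in 5. It was 2 without pair 2 (Anxa2 and Degs1) and 1 without pair 4, so leaving out a pair gave 0 to 2; 16 without background correction, 1 with the pairs of scan 1 alone and 2 with those of scan 2 alone. Leaving out a pair gave 770 to 1287 genes lower and 396 to 466 higher at unadjusted p under 0.05. These counts were 79 and 31 with no replicate block (extracts unpaired), 536 and 165 with the 4 pairs fitted alone, 1626 and 1097 without background correction, 1764 and 1358 with no filter, 265 and 129 with all 8 extracts above background (4022 genes tested), and 522 and 709 in the authors' deposited matrix. The counts were 660 lower and 147 higher on arrays with the transgenic extract in Cy3, and 631 and 1216 on those with it in Cy5. The higher count was 553 with scan 2 alone and 724 with pair 3 read from its dye-switch array alone; with pair 3 as deposited 873 were lower and 468 higher. Leaving out a pair gave 0 to 1 genes against glia and 0 to 5 against TAU-P301L motor neurons; with all 8 extracts above background it was 1. A replicate block of same-numbered pairs gave 0 in both contrasts and changed no call. Direction turned under median centring for Ndufa12 (-0.08) and Cox4i1 (-0.24), with 1 dye orientation for Atp6v0a1 (0.06), Fadd (-0.11) and Rpl15 (0.02), in the deposited matrix for Ube2e1 (0.42), Hspa4 (1) and Ranbp2 (0.17), and with pair 3 as deposited for Ube2e1 (0.25) and Ranbp2 (0.35). Apart from the displaced rows, the causes were not tested. Signal over background was low in places: pairs 3 and 4 had 14.7% to 23.9% of probes above background.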

Other observations

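Of the genes tested, 289 were below 0 on all 8 arrays (2.04%) and 36 above 0 on all 8 (0.254%). Red cell RNA varied widely between pairs: Hbb-bt, a beta globin, had pair ratios of 1.38, -1.44, -0.30 and -0.27.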
